A study of Mus musculus with 12 samples.

Results

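The circadian clock genes of the heart were examined as a set of 10 genes: Arntl, Clock, Npas2, Per1, Per2, Per3, Nr1d1, Nr1d2, Dbp and Ciart. They were picked out by gene symbol, with no threshold on their values, although earlier results of these data were known when the symbols were listed, and all 10 were found among the 26921 genes of the count table. RNA had been sequenced from left ventricular tissue of 16-week-old mice, 6 libraries per genotype. Both genotypes carried floxed Gch1 alleles (Gch1 flox/flox), and Gch1 encodes the enzyme that starts tetrahydrobiopterin synthesis. The cmGch1 KO animals carried in addition heterozygous Cre driven in cardiomyocytes by the α-MHC promoter, while the WT animals had no Cre, so that Cre itself and the loss of Gch1 cannot be told apart. The Cre acts in cardiomyocytes, and the tissue also held other cells that keep the gene. The hour at which each heart was taken is not given in the sources used here, and the mice were kept on a light and dark cycle.

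The mammalian clock is a transcriptional feedback loop that runs in nearly every cell, cardiomyocytes included, with a period of about a day. BMAL1, the product of Arntl, pairs with CLOCK or NPAS2 and activates genes that carry an E-box, among them the Period genes, Nr1d1, Nr1d2, Dbp and Ciart. PER proteins with cryptochromes inhibit that activator, REV-ERBα and REV-ERBβ (Nr1d1 and Nr1d2) repress Arntl through a response element shared with the ROR activators, and DBP drives further genes through D-boxes. In a tissue sampled around the clock, Arntl and Npas2 therefore peak at about the opposite time of day to Nr1d1 and Dbp, and the Period genes peak somewhat after those.

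Promoter windows from RefSeq, on GRCm38.p6 and reaching from 250 bases before to 50 bases after an annotated start site, were available for 9 of the 10 genes (13 windows). The canonical E-box CACGTG, which reads the same on both strands, lay in the windows of 2 of them, Per1 and Ciart, and in 7.15% of all 32851 windows in the table. A D-box spelled TTATGTAA or TTACGTAA, searched on both strands, lay in the window of Per3 and in 1.06% of all windows. The core TAGGTCA of the REV-ERB and ROR element, also searched on both strands, lay in that of Arntl and in 2.61% of all windows. These 4 stretches are shown because they hold each loop element that was found among the clock genes, with the matches in capitals. Those of Ciart (chr3:95882229-95882478, minus strand), Per1 (chr11:69098699-69098948, plus strand) and Per3 (chr4:151044666-151044915, minus strand) are the 250 bases before the start site, and that of Arntl (chr7:113207529-113207558, plus strand) lies just after it. A match is a stretch of letters only, and binding was not measured here.
Ciart: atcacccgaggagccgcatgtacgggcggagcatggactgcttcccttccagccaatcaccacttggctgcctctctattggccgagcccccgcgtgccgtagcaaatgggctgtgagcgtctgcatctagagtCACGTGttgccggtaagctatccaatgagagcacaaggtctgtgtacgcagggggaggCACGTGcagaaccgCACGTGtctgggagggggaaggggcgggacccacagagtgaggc
Per1: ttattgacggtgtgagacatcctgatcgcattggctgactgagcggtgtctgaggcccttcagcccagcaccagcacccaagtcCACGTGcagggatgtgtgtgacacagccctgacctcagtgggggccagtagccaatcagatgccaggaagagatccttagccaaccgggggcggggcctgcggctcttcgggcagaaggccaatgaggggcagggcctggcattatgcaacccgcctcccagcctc
Per3: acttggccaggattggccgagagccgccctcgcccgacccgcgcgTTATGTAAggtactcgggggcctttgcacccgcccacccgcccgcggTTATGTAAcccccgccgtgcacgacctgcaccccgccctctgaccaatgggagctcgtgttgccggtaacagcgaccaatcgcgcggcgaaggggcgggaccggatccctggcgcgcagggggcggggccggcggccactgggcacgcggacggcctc
Arntl: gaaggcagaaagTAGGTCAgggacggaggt

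Libraries held between 19921398 and 37917806 counts. Gch1 averaged 10.7 ± 0.974 cpm in the WT libraries and 5.48 ± 0.855 cpm in the cmGch1 KO libraries (SD, n = 6 each), without overlap, where cpm is a count scaled to the library size after TMM correction. Markers of ventricular cardiomyocytes (Myh6, Tnnt2, Actn2, Myl2 and Ttn) were abundant in every library and summed to between 32848 and 42673 cpm. Xist was at 86.7 and 99.1 cpm in cmGch1 KO replicates 2 and 3, with 0 counts of 4 Y-linked genes, and at most 0.234 cpm in the other 10 libraries. The same 4 genes summed to between 167 and 192 cpm in those 10. By these genes the 2 libraries came from females and the other 10, every WT library among them, from males, although the labels give no sex. Sex was thus unbalanced between the genotypes, and the comparison of genotypes was also made without these 2 libraries. In bulk tissue, fewer cells of a type and less RNA per cell cannot be told apart.

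Between genotypes, none of the clock genes passed the test. Of the 10 genes, 9 had more than 3 cpm in 6 or more libraries and were tested, and Ciart was not, since it exceeded 3 cpm in 3 of 12 libraries. At an adjusted p under 0.05 (edgeR quasi-likelihood, Benjamini-Hochberg over 11225 genes), 0 of the 9 were called, beside 126 genes or 1.12% of all tested (0.445% lower and 0.677% higher). By unadjusted p under 0.05 the count was again 0 of 9, beside 11.5% of all tested. It was 4 of 9 (Npas2, Nr1d2, Per1 and Per3) beside 11.3% without cmGch1 KO replicate 4, 3 of 9 (Nr1d2, Per2 and Per3) beside 11.8% without WT replicate 1, and 0 or 1 with any other single library left out. DESeq2's Wald test called 0 of 9. A fit with the replicate number as a block also called 0 of 9, with 4 of 9 at an unadjusted p under 0.05 by edgeR, beside 16.3% of all tested. The log2 fold change, cmGch1 KO against WT, was negative for 5 and positive for 4 of them, with a median of −0.38 beside −0.0095 for all tested genes. All 10 genes overlapped between the genotypes, whereas 1.87% of tested genes did not. The absence of a call does not show that the genotypes were alike, since the standard errors of the log2 fold changes reached 0.59.

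**Figure D1:**
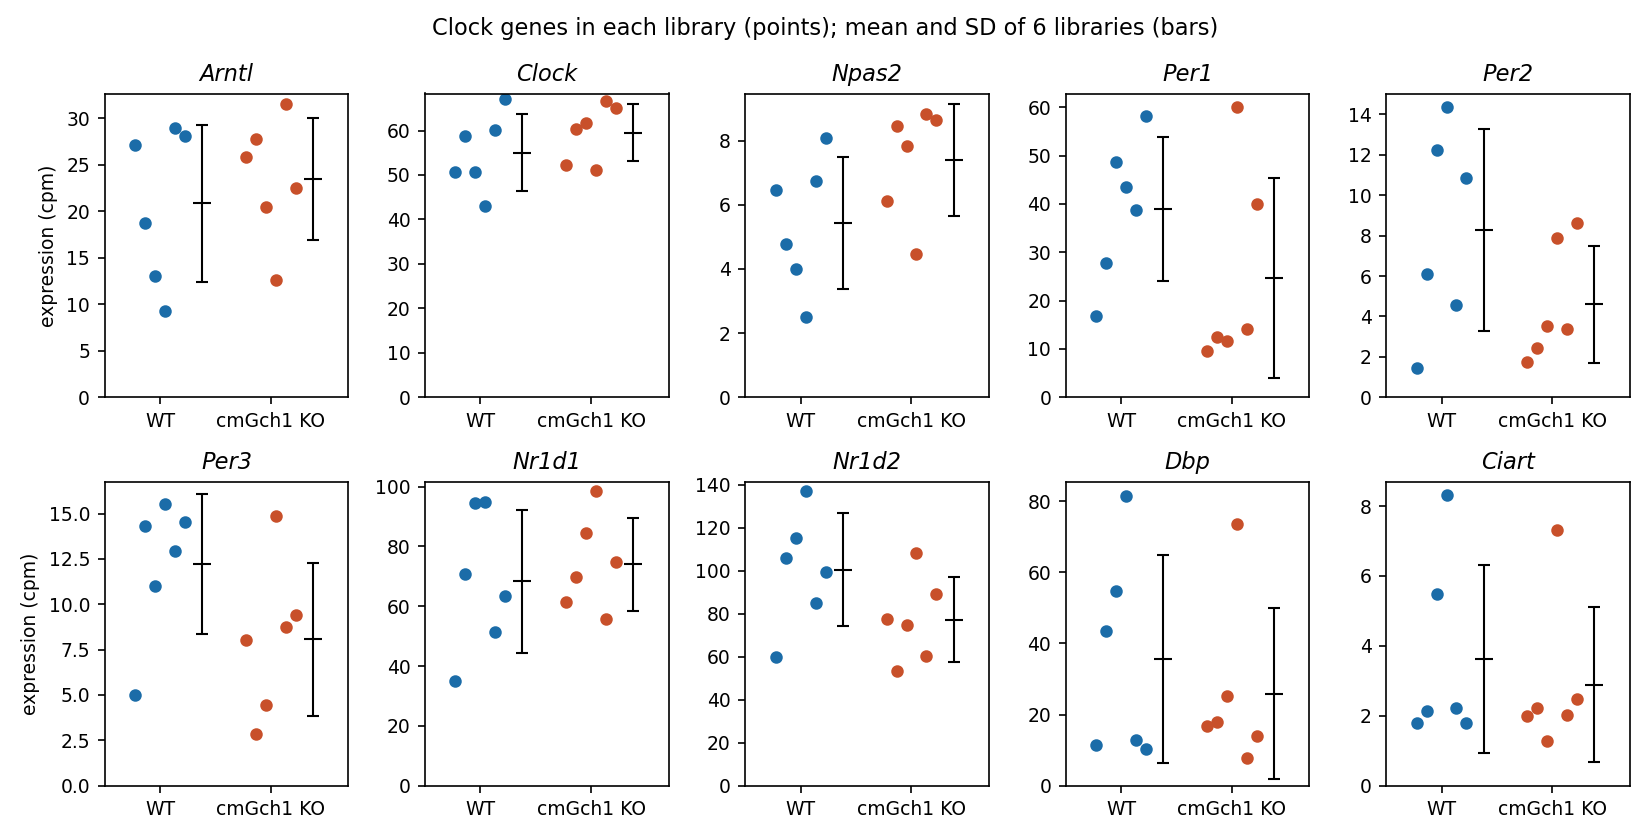
Expression of the 10 clock genes in cpm (vertical axes, each from 0) for WT (blue) and cmGch1 KO (orange) hearts; each point is 1 library in order of replicate number, and the bar gives the mean and SD of 6 libraries. The genotypes overlap for each gene, and 1 cmGch1 KO library, replicate 4, holds the highest cmGch1 KO value of Per1, Per3, Nr1d1, Nr1d2, Dbp and Ciart.

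The activating arm consists of Arntl, Clock and Npas2. Arntl (ENSMUSG00000055116, chr7:113207465-113314126, plus strand, GENCODE M21 on GRCm38) ranged in WT hearts from 9.22 over a median of 22.9 to 29.0 cpm, and in cmGch1 KO hearts from 12.6 over 24.1 to 31.5 cpm. The lowest WT values belonged to replicates 4 and 3, the lowest cmGch1 KO value to replicate 4, and the genotypes overlapped over nearly their whole range. Its log2 fold change was 0.17 (SE 0.27, adjusted p = 0.904 by edgeR), and lay between 0.015 without WT replicate 4 and 0.30 without cmGch1 KO replicate 4.

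Npas2 (ENSMUSG00000026077, chr1:39193731-39363236, plus strand), whose product can replace CLOCK as the partner of BMAL1, ranged from 2.50 over 5.63 to 8.08 cpm in WT and from 4.47 over 8.15 to 8.84 cpm in cmGch1 KO hearts. It had the same library lowest in each genotype as Arntl, replicate 4, and 3 cmGch1 KO libraries lay above the highest WT library. The log2 fold change was 0.45 (SE 0.25, unadjusted p = 0.0899, adjusted p = 0.540 by edgeR). Clock (ENSMUSG00000029238, chr5:76209868-76304792, minus strand) moved least, from 43.1 over 54.7 to 67.1 cpm in WT and from 51.2 over 61.0 to 66.7 cpm in cmGch1 KO hearts, with a log2 fold change of 0.11 (SE 0.11, adjusted p = 0.786 by edgeR).

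The Period genes encode the inhibitors of the loop. Per1 (ENSMUSG00000020893, chr11:69095217-69109960, plus strand) ranged from 16.9 over 41.2 to 58.2 cpm in WT and from 9.53 over 13.3 to 60.0 cpm in cmGch1 KO hearts. In cmGch1 KO replicates 1, 2, 3 and 5 it lay below the lowest WT library, and in replicate 4 above the highest. The log2 fold change was −0.65 (SE 0.45, adjusted p = 0.670 by edgeR). It came to −1.14 without cmGch1 KO replicate 4 and to −0.32 without the 2 libraries with high Xist, in neither case past the threshold.

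Per2 (ENSMUSG00000055866, chr1:91415982-91459324, minus strand) spanned 1.46 to 14.4 cpm in WT hearts, with a median of 8.47, and 1.76 to 8.63 cpm in cmGch1 KO hearts, with a median of 3.46. Replicate 1 was the lowest library of both genotypes, 5 of 6 cmGch1 KO libraries lay below the WT median, and none lay outside the WT range. The log2 fold change was −0.81 (SE 0.48, adjusted p = 0.585 by edgeR), the largest in size among the 9. Per3 (ENSMUSG00000028957, chr4:151003652-151044665, minus strand) ranged from 5.02 over 13.6 to 15.5 cpm in WT and from 2.87 over 8.39 to 14.9 cpm in cmGch1 KO hearts. The 2 cmGch1 KO libraries below the WT range were replicates 2 and 3, those with high Xist. Its log2 fold change was −0.59 (SE 0.33, adjusted p = 0.560 by edgeR), and −0.24 without these 2 libraries.

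Nr1d1 and Nr1d2 encode the REV-ERB repressors. Nr1d1 (ENSMUSG00000020889, chr11:98767932-98775333, minus strand) ranged from 34.8 over 67.1 to 94.9 cpm in WT and from 55.8 over 72.3 to 98.3 cpm in cmGch1 KO hearts, with replicate 4 highest in both. The log2 fold change was 0.12 (SE 0.22, adjusted p = 0.916 by edgeR). Nr1d2 (ENSMUSG00000021775, chr14:18204054-18239127, minus strand) ranged from 60.0 over 103 to 137 cpm in WT and from 53.2 over 76.1 to 108 cpm in cmGch1 KO hearts. Here 1 cmGch1 KO library, replicate 2, lay below the WT range, and the log2 fold change was −0.38 (SE 0.19, unadjusted p = 0.0692, adjusted p = 0.495 by edgeR), the smallest p of the 9. Without the 2 libraries with high Xist, of which replicate 2 is one, it was −0.26 (unadjusted p = 0.248, adjusted p = 0.965 by edgeR). Exons of Nr1d1 overlap those of Thra on the opposite strand, and the strand setting of the counting is not given in the sources used here, so that reads of both genes may not have been separated. Thra varied 1.34-fold over the 12 libraries, from 98.0 to 132 cpm.

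Dbp and Ciart are outputs of the loop. Dbp (ENSMUSG00000059824, chr7:45705088-45710203, plus strand), a PAR bZIP transcription factor, ranged from 10.2 over 28.1 to 81.4 cpm in WT and from 7.64 over 17.3 to 73.7 cpm in cmGch1 KO hearts. Replicate 4 was the highest library of both genotypes, and the lowest was WT replicate 6 and cmGch1 KO replicate 5. The log2 fold change was −0.46 (SE 0.59, adjusted p = 0.861 by edgeR) with all libraries, −1.14 without cmGch1 KO replicate 4 and −0.034 without WT replicate 4. Dbp shares exon bases with Sphk2 on the opposite strand, which varied 1.40-fold, from 17.3 to 24.1 cpm.

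Ciart (ENSMUSG00000038550, chr3:95878503-95882251, minus strand), also called CHRONO, encodes a repressor of the BMAL1 complex. It ranged from 1.78 over 2.18 to 8.31 cpm in WT and from 1.29 over 2.12 to 7.32 cpm in cmGch1 KO hearts, with at least 30 counts in each library. The 3 libraries above 3 cpm were WT replicates 3 and 4 and cmGch1 KO replicate 4, those with the lowest Arntl. With no filter on low counts, its log2 fold change was −0.32 (SE 0.42, adjusted p = 0.798 by edgeR over 24643 genes).

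Levels can be set side by side only per kilobase of exon. On that scale Nr1d1 had the highest mean, 22.2 ± 7.73 cpm per kb (SD, n = 6) in WT and 24.1 ± 5.06 in cmGch1 KO hearts, followed by Nr1d2 with 18.6 ± 4.86 and 14.3 ± 3.66. Dbp came next with 11.9 ± 9.78 and 8.64 ± 8.06 cpm per kb, with an SD nearly as large as the mean. Per1 (6.92 ± 2.63 and 4.37 ± 3.68) and Clock (4.01 ± 0.625 and 4.34 ± 0.472) followed, and in cmGch1 KO hearts these 2 did not differ beyond their SD. Arntl had means of 2.77 and 3.11 cpm per kb, and Npas2, Per2, Per3 and Ciart lay between 0.786 and 1.60 in either genotype, neighbours that do not differ beyond their spread.

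The clock genes varied widely between libraries of the same genotype. The median within-genotype SD of log2 cpm over all tested genes was 0.19, and its 95th percentile was 0.40. Of the 9 clock genes tested, 7 exceeded that percentile, and all 9 exceeded the median. Dbp had an SD of 1.21 and ranked 21 of 11225, followed by Per2 (1.07, rank 25), Per1 (0.90, rank 42), Per3 (0.73, rank 68) and Arntl (0.58, rank 149). Npas2 ranked 239, Nr1d1 394, Nr1d2 648 and Clock 5364, the last with an SD of 0.20. Between the lowest and highest of the 12 libraries Dbp varied 10.7-fold, Per2 9.88-fold, Per1 6.30-fold, Arntl 3.42-fold and Clock 1.56-fold. Ranks and ratios are descriptions and were not tested.

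The spread was ordered. Libraries low in Arntl were high in Dbp, in both genotypes. In WT replicate 4, Arntl was at 9.22 and Dbp at 81.4 cpm, 0.113 times as much Arntl as Dbp. In cmGch1 KO replicate 5, Arntl was at 31.5 and Dbp at 7.64 cpm, 4.13 times as much. WT replicates 3 and 4 and cmGch1 KO replicate 4 had 0 of the 3 activating genes and 7 of the 7 other genes above their mean over 12 libraries. WT replicate 1 and cmGch1 KO replicates 1 and 5 had none of the 7 above it and at least 2 of the 3 activating genes above it. The 2 patterns each occurred in both genotypes.

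**Figure D2:**
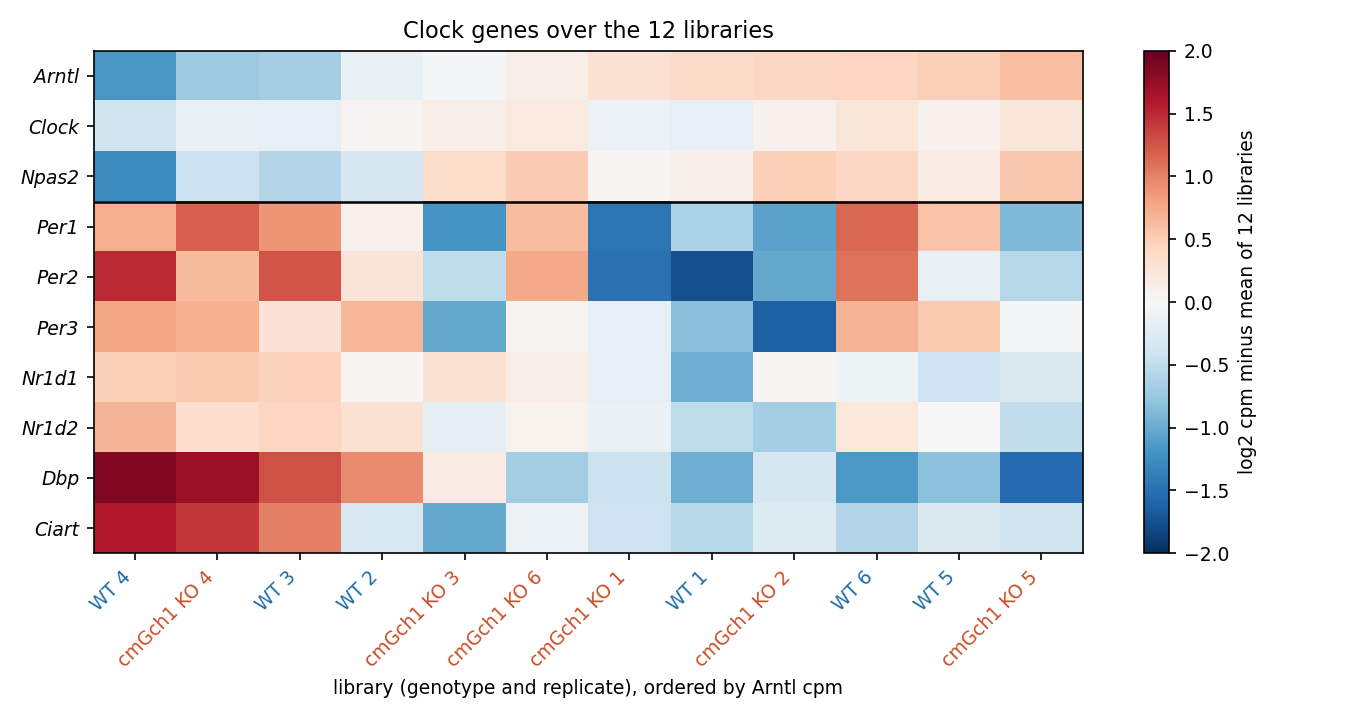
Log2 cpm of the 10 clock genes (rows) minus the mean of 12 libraries, with libraries (columns) ordered from low to high Arntl; red is above and blue below the mean, and the line separates Arntl, Clock and Npas2 from the other 7 genes. The 3 libraries on the left, WT replicates 4 and 3 and cmGch1 KO replicate 4, have the 3 activating genes below and the other 7 above their mean.

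The sign of every pairwise correlation over the 12 libraries followed the 2 arms of the loop. Among the 45 pairs, all 24 pairs within Arntl, Clock and Npas2 or within the other 7 genes were positive, and all 21 pairs between them were negative. The r of these 21 pairs ran from −0.95 to −0.12, weakest for Clock and Per2. With each library left out in turn, r lay between −0.31 and 0.21 for Clock and Per2. It lay between −0.33 and 0.0092 for Clock and Per3, and between −0.34 and −0.0056 for Clock and Per1. Within WT, r was 0.22 for Clock and Per1 and 0.21 for Clock and Per3, and within cmGch1 KO it was 0.12 for Clock and Per2. The sign of the pairs of Clock with the Period genes was thus not firm. By a two-sided permutation test of Pearson's r with 100000 resamples, 26 of the 45 pairs had an adjusted p under 0.05, namely 3 of 3 within the activating genes, 13 of 21 within the other 7 and 10 of 21 between. Spearman's rho passed for 16 pairs. Without WT replicate 4, the library lowest in Arntl, 13 of 45 pairs passed by r. Within WT alone 19 of the 21 pairs between the arms were negative and within cmGch1 KO alone 20 were, although with 6 libraries 0 of 45 pairs passed adjustment in either genotype by an exact test over 720 orders. Pairs share genes and libraries, and are not independent of each other. The permutation also treats the 12 libraries as exchangeable, while same-numbered libraries of the genotypes shared several extremes, such as the lowest Arntl in replicate 4.

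Arntl and Dbp made the strongest pair. Their r was −0.95 (permutation p = 1e-05, the smallest that these resamples can give, adjusted p = 0.00045) and their rho −0.92 (adjusted p = 0.0018). Within WT r was −0.96 (exact permutation p = 0.00556) and within cmGch1 KO −0.94 (exact permutation p = 0.0125). It was −0.92 without the 2 libraries farthest from the median of Arntl, −0.96 without the 2 libraries with high Xist, and between −0.96 and −0.94 with each library left out in turn. Libraries of either genotype thus lay along a falling line, and the difference between the genotypes in r was not tested.

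**Figure D3:**
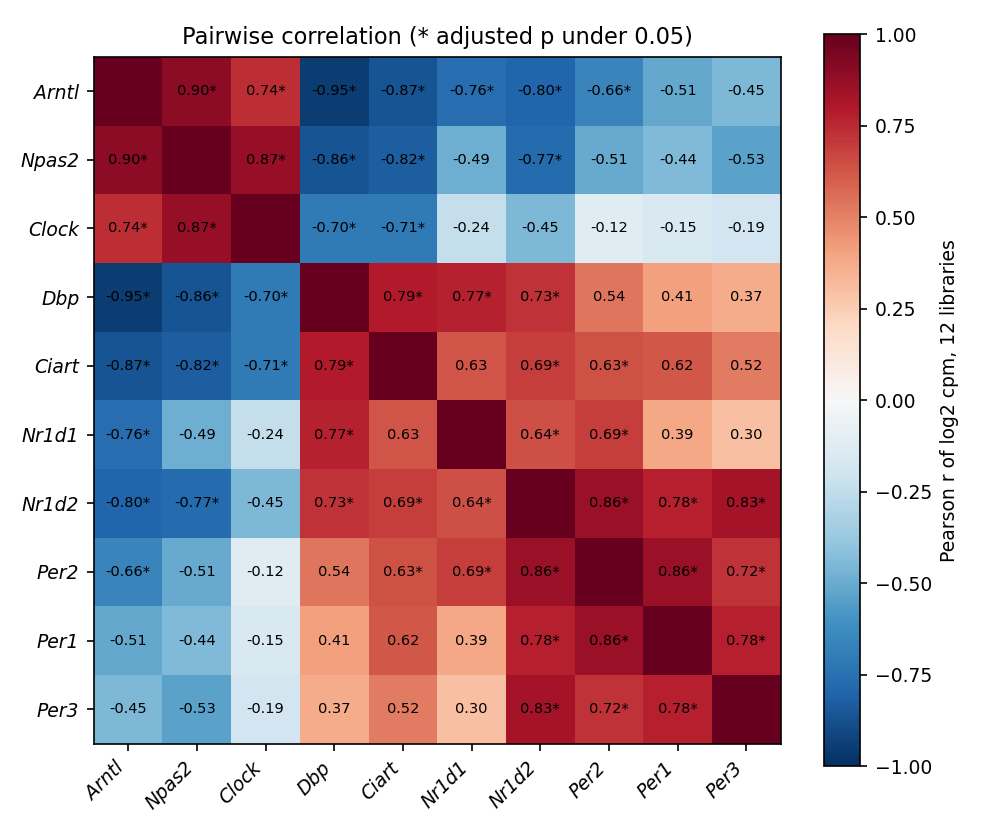
Pearson r of log2 cpm over 12 libraries for each pair of the 10 clock genes, with red positive and blue negative; an asterisk marks an adjusted permutation p under 0.05 over the 45 pairs. The block of Arntl, Npas2 and Clock is positive, and its 21 pairs with the other 7 genes are negative. The Period genes have r of 0.72 to 0.86 with each other, of 0.78 to 0.86 with Nr1d2 and of 0.37 to 0.54 with Dbp.

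Arntl rose with Npas2 (r = 0.90, rho = 0.78, adjusted permutation p = 0.0036 and 0.0177) and fell with Nr1d2 (r = −0.80, rho = −0.71, adjusted p = 0.0088 and 0.0403) and Nr1d1 (r = −0.76, rho = −0.86, adjusted p = 0.0109 and 0.0061). These 3 kept an unadjusted permutation p under 0.05 without the 2 libraries farthest from the median of Arntl, with r of 0.76, −0.67 and −0.69. For Ciart the r of −0.87 (adjusted p = 0.0088) came with a rho of −0.55 (adjusted p = 0.123), and without those 2 libraries r was −0.64 (permutation p = 0.0757). The relations of Arntl to Clock (r = 0.74, rho = 0.64, adjusted p = 0.0149 and 0.0717) and to Per2 (r = −0.66, rho = −0.53, adjusted p = 0.0382 and 0.134) likewise weakened without those 2 libraries. There r was 0.44 (permutation p = 0.203) and −0.52 (permutation p = 0.120). With 1 library left out in turn, the relation to Per2 passed the threshold in 5 of 12 cases, so that it was marginal in general. For Per2 the adjusted permutation p was 0.0738 without the 2 libraries with high Xist.

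**Figure D4:**
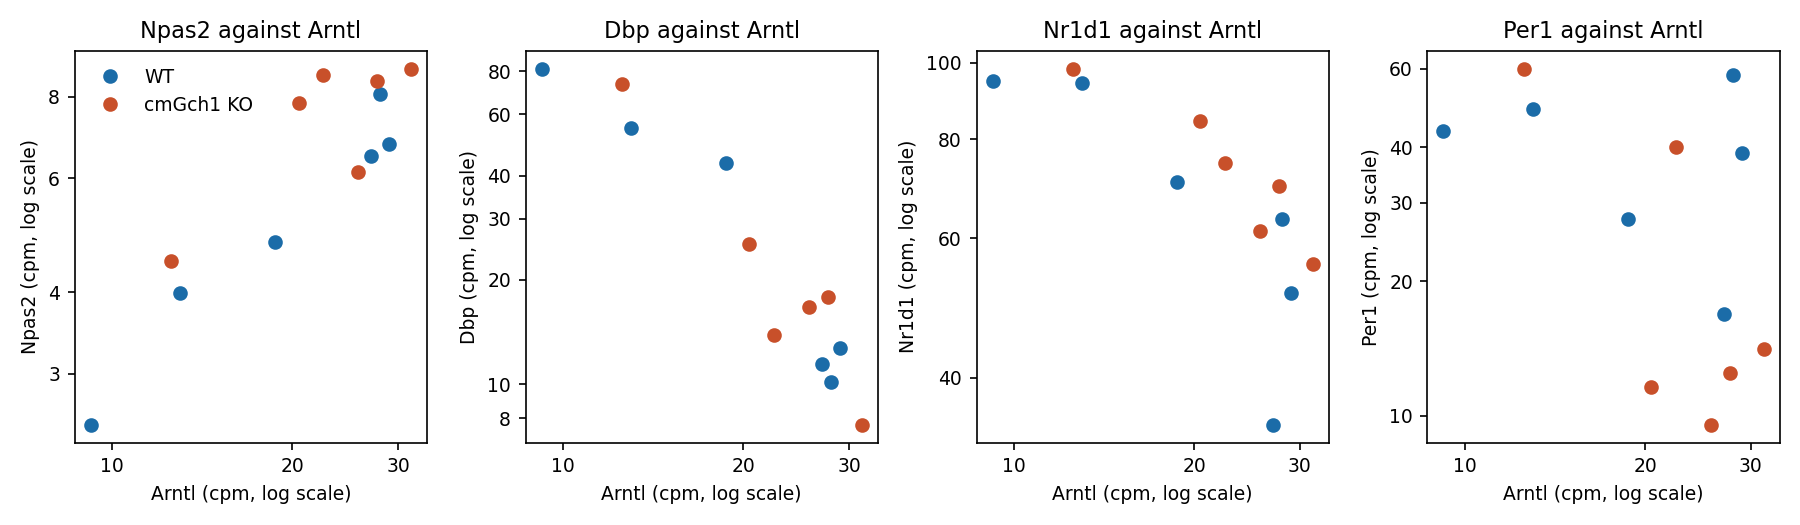
Npas2, Dbp, Nr1d1 and Per1 (vertical axes, cpm, log scale) against Arntl (horizontal axes, cpm, log scale) in 12 libraries, WT in blue and cmGch1 KO in orange. Npas2 rises with Arntl, Dbp and Nr1d1 fall along it in both genotypes, and Per1 scatters, with values from 9.53 to 58.2 cpm among the libraries high in Arntl.

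The Period genes had higher r with each other than, in size, with Arntl. Per1 and Per2 had an r of 0.86 (rho = 0.80, adjusted permutation p = 0.0051 and 0.0144), Per1 and Per3 of 0.78 (rho = 0.82, adjusted p = 0.0099 and 0.0121) and Per2 and Per3 of 0.72 (rho = 0.78, adjusted p = 0.0186 and 0.0181). Without the 2 libraries farthest from the median of the first gene of each pair, r was 0.85, 0.81 and 0.75. Nr1d2 was correlated with them as well, with an r of 0.86 to Per2 and 0.83 to Per3 (adjusted permutation p = 0.0047 for both). It was also correlated with Dbp (r = 0.73, rho = 0.64, adjusted permutation p = 0.0223 and 0.0717) and, as given above, with Arntl (r = −0.80). Against Arntl, by contrast, Per1 had an r of −0.51 (rho = −0.37, adjusted permutation p = 0.125 and 0.275) and Per3 of −0.45 (rho = −0.43, adjusted p = 0.178 and 0.217). Dbp had an r of 0.41 with Per1, 0.54 with Per2 and 0.37 with Per3, none past the threshold. The difference between these correlations was not tested.

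Single libraries show where the Period genes left the order set by Arntl and Dbp. WT replicate 6 had high Arntl (28.0 cpm) and the lowest Dbp of its genotype (10.2 cpm), with the highest WT value of Per1 (58.2 cpm). WT replicate 1, with nearly the same Arntl (27.1 cpm) and Dbp (11.4 cpm), had the lowest WT values of Per1 (16.9 cpm), Per2 (1.46 cpm) and Per3 (5.02 cpm). Among cmGch1 KO hearts, replicate 6 (Dbp 13.9 cpm) had 40.0 cpm of Per1, and replicate 1 (Dbp 16.7 cpm) had 9.53 cpm. Per3 differed less between these 2 cmGch1 KO libraries, with 9.43 cpm in replicate 6 and 8.01 cpm in replicate 1.

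Technical measures and marker lists were also set beside the order over libraries, and none passed the adjusted threshold. Arntl and Dbp were each correlated with total counts, the mitochondrial share of counts, Gch1 and the mean of 9 marker lists, 24 relations in all, and 0 had an adjusted permutation p under 0.05. The strongest was that of Arntl with 4 endothelial markers (r = 0.71, rho = 0.56, unadjusted permutation p = 0.0105 and adjusted p = 0.253), and Dbp ran opposite to them (r = −0.64, adjusted p = 0.289). These markers summed to between 490 and 693 cpm in WT and between 580 and 716 cpm in cmGch1 KO hearts, and 0 of 4 were called between genotypes. Total counts had an r of −0.52 with Arntl (adjusted permutation p = 0.452). The 3 atrial markers had an r of −0.53 with Arntl and of 0.49 with Dbp (adjusted permutation p = 0.452 for both). With Arntl their r was −0.76 within WT and −0.12 within cmGch1 KO. They summed to between 7.62 and 283 cpm in WT and between 45.1 and 187 cpm in cmGch1 KO hearts. With 12 libraries, the lack of a pass does not show that Arntl and Dbp were unrelated to these measures. The part of these measures in the relation of Arntl and Dbp was not tested.

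Each tested gene was then fitted on the log2 level of Arntl with genotype in the same model, so that a slope is the log2 change per doubling of Arntl within a genotype. This fit was added after the pattern had been seen. It uses the same libraries and values as the correlations with Arntl, so that a slope and an r of the same gene are not separate evidence. Of 11224 genes, 11 (0.098%) had a slope with an adjusted p under 0.05 by edgeR, of which 6 (0.0535%) rose and 5 (0.0445%) fell, and 654 (5.83%) had an unadjusted p under 0.05. Dbp ranked first of all genes, with a slope of −1.96 (SE 0.19, adjusted p = 0.00116), and Npas2 ranked 7, with 0.82 (SE 0.12, adjusted p = 0.0231). Nr1d1 had a slope of −0.63 (SE 0.12, adjusted p = 0.0971), Nr1d2 of −0.52 (SE 0.11, adjusted p = 0.212), Per2 of −0.97 (SE 0.36, adjusted p = 0.679) and Clock of 0.25 (SE 0.080, adjusted p = 0.591), and 6 of the 8 clock genes fitted had an unadjusted p under 0.05. Thra and Sphk2, which share exon bases with Nr1d1 and Dbp, had slopes of the opposite sign, 0.18 (adjusted p = 0.539) and 0.16 (adjusted p = 0.842).

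Beside these, 2 other genes of the loop passed, and both rose with Arntl. Nfil3, a bZIP repressor that competes with DBP at D-boxes, ranked second with a slope of 1.22 (SE 0.13, adjusted p = 0.00144 by edgeR). It lay between 6.42 and 29.8 cpm. Cry1, the cryptochrome that peaks latest in the cycle, had a slope of 0.67 (SE 0.11, adjusted p = 0.0303). Coq10b, from a list of genes described as clock outputs, fell with Arntl (−0.68, SE 0.11, adjusted p = 0.0298). Of these 11 genes, Dbp and Nfil3 were called in 12 of 12 fits that left out 1 library, Npas2 in 8 and Cry1 and Coq10b in 6. Without the 2 libraries with high Xist, Npas2 (adjusted p = 0.0508 by edgeR) and Coq10b (adjusted p = 0.0667) missed the threshold, and the slope of Npas2 was again 0.82. Fits lacking WT replicate 4, WT replicate 5 or cmGch1 KO replicate 4 left 1 falling and 1 rising gene each, the fit lacking WT replicate 3 left 2 falling and 1 rising, and that lacking cmGch1 KO replicate 2 gave 10 rising genes.

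**Figure D5:**
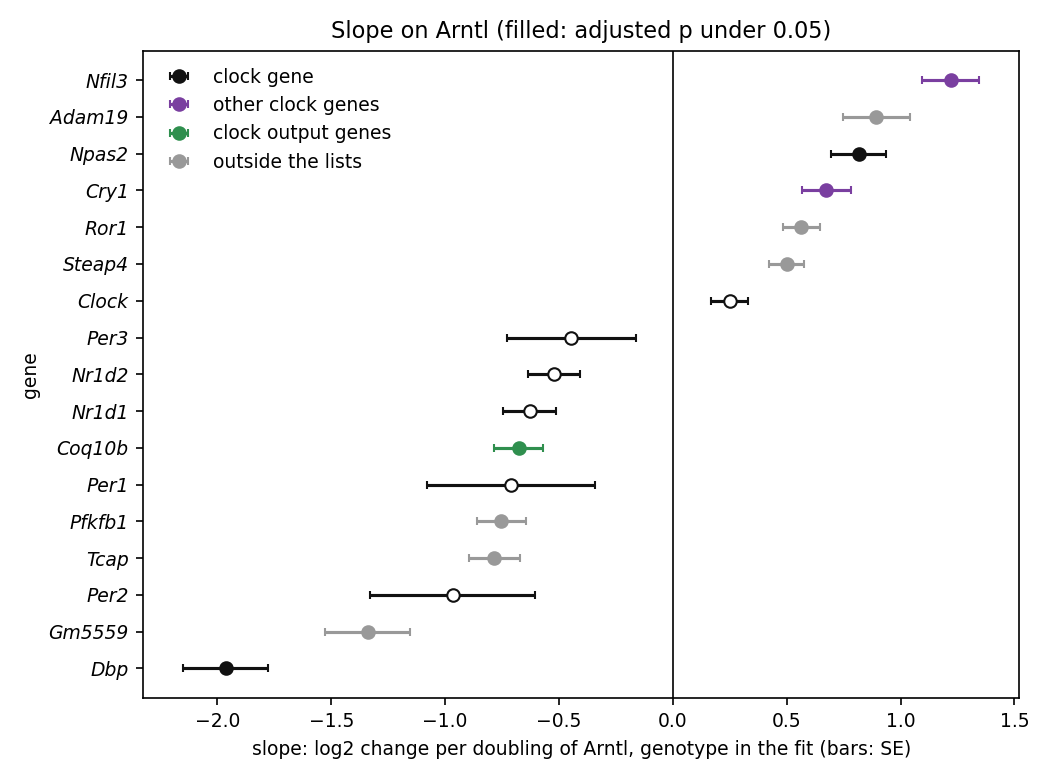
Slope of each gene on Arntl (horizontal axis, log2 change per doubling of Arntl with genotype in the fit; bars give the SE) for the 8 other clock genes tested (black) and the remaining genes called, where filled points have an adjusted p under 0.05. Dbp has the steepest fall, at −1.96, and Nfil3 the steepest rise, at 1.22.

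The remaining 6 genes lie outside the clock lists, and they are named after their values were seen. Tcap, which encodes the Z-disc protein telethonin, fell with Arntl (−0.78, SE 0.11, adjusted p = 0.0187 by edgeR) while spanning 546 to 1602 cpm. Pfkfb1, an isoform of the enzyme that sets fructose-2,6-bisphosphate levels, fell too (−0.75, SE 0.11, adjusted p = 0.0187), and it was also lower in cmGch1 KO hearts (log2 fold change −1.37, SE 0.26, adjusted p = 0.0158). Gm5559, a processed pseudogene whose reads may belong to a parent gene, fell (−1.34, SE 0.19). Ror1, Steap4 and Adam19 rose, with slopes of 0.56, 0.50 and 0.89. Of the 12 fits that left out 1 library, Pfkfb1 was called in 9, and Tcap, Gm5559 and Ror1 in 8. Steap4 was called in 6 and Adam19 (adjusted p = 0.0420 by edgeR with all libraries) in 2.

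By likeness alone, over 12 libraries and 11180 candidate genes outside the clock lists, the pattern of Arntl was nearest to those of Cmtm6 (r = 0.95), Ror1 (0.94), Cyth3 (0.93), Pcdh12 (0.91) and Steap4 (0.89). That of Dbp was nearest to Tcap (0.97), Tlcd1 (0.92), Klhl33 (0.91), Tmem120b (0.88) and Adnp2 (0.88). After centring within genotype, Rims4 (0.92) replaced Pcdh12 beside Arntl, and Pfkfb1 (0.91) and Gpcpd1 (0.91) replaced Tmem120b and Adnp2 beside Dbp. Both Pfkfb1 and Gpcpd1 were called lower in cmGch1 KO hearts (Gpcpd1 log2 fold change −0.59, adjusted p = 0.0189 by edgeR), and each varied with Dbp within a genotype. These r were chosen as the highest and are a description with no test.

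The rest of the clock machinery was read from a list of 21 genes, of which 18 were tested and Rorb, Arntl2 and Fbxl21 were too low. Between genotypes 0 of 18 were called, beside 1.12% of all tested genes, 12 were lower and 6 higher, where 53.3% of all tested genes were lower, and the median log2 fold change was −0.052. An unadjusted p under 0.05 was reached by 2 of 18, a share near the 11.5% of all tested genes. These were the PAR bZIP factors related to DBP, Hlf and Tef. Hlf ranged from 17.4 over 24.5 to 29.6 cpm in WT and from 10.1 over 15.7 to 22.7 cpm in cmGch1 KO hearts, giving a log2 fold change of −0.57 (SE 0.17, unadjusted p = 0.0046, adjusted p = 0.155 by edgeR). Tef ranged from 87.5 over 102 to 131 cpm in WT and from 45.5 over 70.4 to 97.8 cpm in cmGch1 KO hearts (log2 fold change −0.57, SE 0.18, unadjusted p = 0.0067, adjusted p = 0.187 by edgeR). Without the 2 libraries with high Xist these log2 fold changes were −0.41 for Hlf and −0.35 for Tef (adjusted p = 0.568 and 0.594 by edgeR). Both genes overlapped between genotypes, and DESeq2's Wald test placed Hlf past the threshold. Neither had a slope on Arntl past the threshold (−0.16 for Hlf and −0.31 for Tef).

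Against Arntl, 2 of these 18 genes passed by correlation, Nfil3 (r = 0.94, rho = 0.94, adjusted permutation p = 1.8e-04 and 3.6e-04 over 18 relations) and Cry1 (r = 0.86, rho = 0.90, adjusted p = 0.00198 and 0.00171). Without the 2 libraries farthest from the median of Arntl, r was 0.87 and 0.73. These are the relations that the slopes of Nfil3 and Cry1 describe, measured on the same values. Within WT, Cry1 had an r of 0.99 (exact permutation p = 0.00417) and within cmGch1 KO of 0.73 (exact permutation p = 0.0972). Bhlhe40, a repressor at E-boxes, had an r of −0.72 (rho = −0.70, adjusted permutation p = 0.0523 and 0.0884), Cry2 of −0.46 and Bhlhe41 of −0.49, none past the threshold. Rora, an activator that acts on the same element as the REV-ERBs, had an r of −0.092, and its log2 fold change was −0.26 (adjusted p = 0.502 by edgeR).

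Among 20 genes described as outputs of the clock or of glucocorticoids, 18 were tested, 0 were called between genotypes (1.12% of all tested genes), 14 were lower and 4 higher, and the median log2 fold change was −0.27. The 4 of 18 with an unadjusted p under 0.05, beside 11.5% of all tested genes, included Klf15 (−0.55, SE 0.20, adjusted p = 0.256 by edgeR), a Krüppel-like factor of cardiac metabolism, Nampt (−0.39, SE 0.13, adjusted p = 0.228), which makes the precursor of NAD, and Dgat2 (−0.29, SE 0.077, adjusted p = 0.112), which completes triacylglycerol synthesis. Cdkn1a, the cell cycle inhibitor p21, had the opposite sign (0.79, SE 0.29, adjusted p = 0.267). Each overlapped between genotypes. Without the 2 libraries with high Xist the log2 fold changes were −0.36 for Klf15, −0.21 for Nampt, −0.21 for Dgat2 and 0.51 for Cdkn1a, with adjusted p from 0.497 to 0.860 by edgeR.

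With the level of Arntl as a covariate in the comparison of genotypes, again 0 of the 8 other clock genes were called. The log2 fold change of Dbp moved from −0.46 to 0.068, that of Npas2 from 0.45 to 0.33 and that of Nr1d1 from 0.12 to 0.30. Npas2 and Nr1d1 had an unadjusted p under 0.05 there (0.0207 and 0.0380 by edgeR), as had 10.9% of all tested genes. Over all genes, 40 were then lower and 61 higher, and 93 of the 126 called without the covariate were shared.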

How the data were processed

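Per the labels, 12 libraries were grouped as WT (n = 6) or cmGch1 KO (n = 6) by their genotype. According to the methods, the authors made stranded paired-end libraries with dUTP from total RNA, sequenced them on 2 flow-cell units (which library ran on which is not given), and counted reads by means of HISAT2, Picard and featureCounts. Each library came from a single animal. The submitters' processing notes name HISAT2, SAMtools and the build GRCm38; the annotation release and the strandedness used in counting are not given in the sources used here. The authors deposited whole-number counts per Ensembl gene, and a second table of normalized values on a log2 scale whose tool is not named; the latter served only as an alternative. Symbols were taken from GENCODE M21, which matched 26582 of 26921 identifiers (98.7%).

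Counts were analysed with edgeR 4.0.16 in R 4.3.3, by TMM, a minimum of 3 cpm in 6 or more libraries (11225 genes), a quasi-likelihood fit on genotype and Benjamini-Hochberg adjustment, with a threshold of 0.05. The test was checked on simulated counts. Correlations used log2 cpm (prior count 2) and two-sided permutation tests with 100000 resamples, or all 720 orders within a genotype, adjusted over the 45 pairs. Alternatives were other size factors and filters, DESeq2 1.42.0, limma 3.58.1 on the deposited log2 values, a replicate block, sex-linked and Arntl covariates, and leaving out libraries. Depth was 19921398 to 37917806 counts per library, and the fewest counts of a clock gene in 1 library were 30, for Ciart.

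The clock genes and both lists of related genes were chosen with earlier results of these data known. Named genes were the 10 clock genes, Gch1, sex-linked genes, transcription factors and cryptochromes of the clock list, members of either list with an unadjusted p under 0.05, and the 5 genes most like Arntl and Dbp; genes with a called slope on Arntl were named after their values were seen, and that fit and the Arntl covariate were added after seeing the data. Markers of 9 cell types were summed per library. Atrial markers ranged from 7.62 to 283 cpm, fibroblast from 638 to 888, smooth muscle and pericyte from 793 to 963 (1 of 4 called), macrophage from 76.8 to 95.8 (WT) or from 95.5 to 116 (cmGch1 KO, 0 of 4 called), nerve and glia from 4.55 to 7.52, lymphocyte from 0.319 to 1.75 and adipocyte from 0.386 to 8.58. The values of 1 gene of the clock list are not reported here.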

Additional observations from a re-analysis of the deposited data

Results flagged for a closer look

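In 54 groups of 6 values (27 named genes in each genotype), 5 held a single library far from the rest by Dixon's criterion for 6 samples (0.625), where chance gives about 1 in 20. That rate is for independent values, and the named genes vary together. Of these 5 groups, 4 were in cmGch1 KO replicate 4, the cmGch1 KO library with the lowest Arntl. These 4 do not count separately, since Pfkfb1 was named for its likeness to Dbp. Dbp was at 73.7 cpm there and at 25.3 cpm in the nearest cmGch1 KO library. Ciart was at 7.32 cpm, with 2.48 cpm in the nearest library, Cry2 at 33.2 cpm, with 24.8 cpm in the nearest, and Pfkfb1 at 6.99 cpm, with 3.64 cpm in the nearest. WT replicate 4 had the highest WT values of Dbp (81.4 cpm) and Ciart (8.31 cpm). The remaining one was Cdkn1a in WT replicate 6, at 94.0 cpm, with 52.5 cpm in the nearest WT library.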

How the results depend on the processing

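No clock gene was called between genotypes under any alternative run. Of 197 alternative log2 fold changes of the 9 tested clock genes, 195 kept their direction and their side of the threshold, and the lowest adjusted p was 0.121 (edgeR). The exceptions were Nr1d1, at −0.017 without WT replicate 1 (to 0.24 without WT replicate 4), and Dbp, at 0.068 with Arntl as a covariate. Counts over all genes moved more: 50 lower and 76 higher became 155 and 218 by DESeq2's Wald test, 24 and 40 with a sex-linked covariate, 18 and 20 without the 2 libraries with high Xist, and 36 and 116 with library size alone (23.7% lower beside 39.7%). Leaving out 1 library gave 30 to 97 lower and 45 to 116 higher, lowest without WT replicate 3 and highest without cmGch1 KO replicate 1. Of the other clock genes, 1 (Hlf) was called lower by DESeq2's Wald test. The replicate numbers share no stated animal or day. Deviations from the genotype mean had an r between same-numbered libraries of 0.68, 0.40 and 0.51 for replicates 1, 5 and 6. Each was the highest of that WT library with any cmGch1 KO library. For replicates 2, 3 and 4 this r was negative (−0.095, −0.078 and −0.13). The replicate block gave 76 lower and 112 higher genes, with 0 clock genes called and 113 of 126 calls shared. Of the 9 clock genes, 4 (Npas2, Nr1d2, Per1 and Per2) had an unadjusted p under 0.05 by edgeR in that fit, beside 16.3% of all genes. The 26 pairs of clock genes past the threshold ranged from 13 to 30 with 1 library left out, and were 0 within WT and 0 within cmGch1 KO, where 6 libraries limit the exact test; the r of Arntl and Dbp was −0.96 and −0.94 there, with adjusted p of 0.05 and 0.113. Genes with a called slope on Arntl ranged from 1 to 6 falling and from 1 to 10 rising with 1 library left out. The causes were not tested.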
